A study of Homo sapiens with 16 samples.

Results

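The genes described here are 32 genes of DNA replication and S phase, out of 60676 genes counted in each library. They were taken by name, and each matched 1 Ensembl gene: MCM2 to MCM7, MCM10, CDC6, CDT1, CDC45, GINS1 to GINS4, PCNA, RFC2 to RFC5, POLA1, POLA2, POLE2, PRIM1, RRM1, RRM2, TYMS, TK1, CDC25A, CLSPN, CHAF1A, CHAF1B and FEN1. All 32 passed the filter on low counts that left 21810 genes for testing. In DMSO, 7 of the 32 were higher in RB-p53 double knockout cells than in parental cells, beside 8.91% of all tested genes. None was lower, beside 9.70% of all tested genes. In enzalutamide 4 of the 32 were higher, a share near the 9.29% of all tested genes. Leaving out 1 library moved the count in DMSO between 4 and 15.

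The study profiled total RNA of LNCaP, a human prostate adenocarcinoma cell line that depends on the androgen receptor. RB-p53 double knockout (DKO) cells had been made from it with CRISPR-Cas9, and the parental cells are called wild type (WT). Each genotype was kept for 6 days in 50 µM enzalutamide (EZ), an androgen receptor antagonist, or in an equal volume of its solvent DMSO. The 4 groups of 4 libraries are DKO cells in EZ, DKO cells in DMSO, WT cells in EZ and WT cells in DMSO. All cells grew in serum-containing medium, and rRNA was depleted before library construction. Whether the DKO cells are 1 clone or a pool is not given in the sources used here. Nothing in the labels says that the 4 replicates of a group were separate cultures, so the p-values measure the spread between these libraries, which may be technical.

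DNA is copied once per cell cycle from origins that are licensed in G1, when ORC, CDC6 and CDT1 load the MCM2 to MCM7 helicase onto DNA. In S phase CDC45 and the GINS complex join the helicase, primase and DNA polymerase alpha start each strand, and the RFC clamp loader places the PCNA ring that holds the polymerases on DNA. Ribonucleotide reductase, thymidylate synthase and thymidine kinase supply the nucleotides. Many of these genes are textbook targets of E2F transcription factors, which the retinoblastoma protein (the product of RB1) restrains.

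Totals ran from 11823438 to 47678648 counts per library, with a median of 23919882. Levels are given in CPM, a gene's counts relative to the library's TMM-scaled total. RB1 had 9.94 to 13.4 CPM in DKO EZ and 9.04 to 11.7 CPM in DKO DMSO libraries, against 95.6 to 122 CPM in WT EZ and 100.7 to 128 CPM in WT DMSO libraries. All 11 luminal prostate markers were detected in every group, with a summed level of 2599 to 3512 CPM in DKO EZ, 2477 to 3566 CPM in DKO DMSO, 4549 to 5484 CPM in WT EZ and 3537 to 5374 CPM in WT DMSO libraries. Of 4 leukocyte markers CD3E was at 0 in every library, and the summed level of the 4 was at most 0.34 CPM. The 4 basal markers summed to at most 6.26 CPM, and the 4 endothelial markers to 2.99 to 4.89 CPM in DKO EZ, 5.37 to 10.9 CPM in DKO DMSO, 3.33 to 6.84 CPM in WT EZ and 6.31 to 17.4 CPM in WT DMSO libraries. The 5 fibroblast markers moved with genotype, at 36.1 to 49.8 CPM in DKO EZ and 23.3 to 42.6 CPM in DKO DMSO, against 14.2 to 20.4 CPM in WT EZ and 14.6 to 21.5 CPM in WT DMSO libraries. DCN, one of them, was at 0 in all WT libraries, and the part of these markers in the results below was not tested.

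Single libraries stood apart from the rest of their group in these genes. The summed level of the 32 genes was 972.9, 2039, 2072 and 1941 CPM in DKO EZ replicates 1 to 4 and 2332, 2363, 2278 and 1609 CPM in DKO DMSO replicates 1 to 4. It was 714.7, 1382, 1330 and 1450 CPM in WT EZ replicates 1 to 4 and 2038, 1326, 1206 and 622.9 CPM in WT DMSO replicates 1 to 4. The lowest libraries were therefore WT DMSO replicate 4, WT EZ replicate 1 and DKO EZ replicate 1, and WT DMSO replicate 1 lay among the DKO libraries. The summed level of 20 mitosis genes moved with it, at 493.8 CPM in DKO EZ replicate 1 against 1310 to 1839 CPM in the other DKO EZ libraries, 275.1 CPM in WT EZ replicate 1 against 1092 to 1190 CPM in the other WT EZ libraries, and 370.0 CPM in WT DMSO replicate 4 against 1223 to 2240 CPM in the other WT DMSO libraries. MKI67, a marker of cycling cells, was 47.2 CPM in DKO EZ replicate 1, 17.6 CPM in WT EZ replicate 1 and 34.0 CPM in WT DMSO replicate 4. In bulk RNA, fewer cells in S phase and less of these RNAs per cell cannot be told apart, and the part of cycling in the differences below was not tested.

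**Figure D1:**
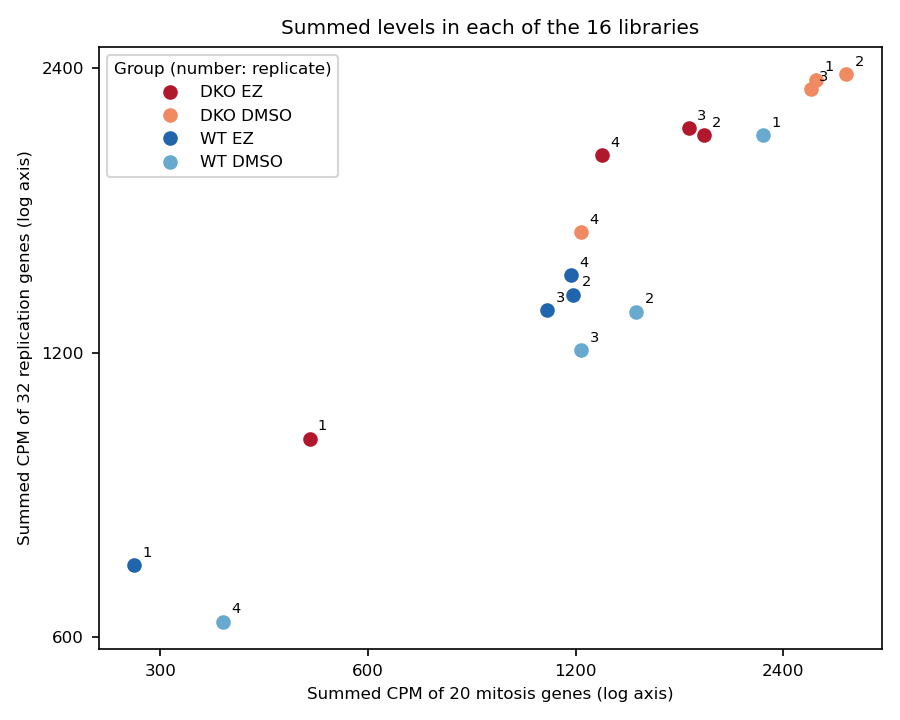
Summed CPM of the 32 replication genes (vertical, log axis) against summed CPM of 20 mitosis genes (horizontal, log axis), 1 point per library, coloured by group and numbered by replicate. DKO EZ replicate 1, WT EZ replicate 1 and WT DMSO replicate 4 lie at the low end of both axes, at 972.9, 714.7 and 622.9 CPM on the vertical axis, and the 3 highest points are DKO DMSO replicates 1 to 3.

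The first comparison asks whether the replication genes differ between DKO and WT cells without the drug. In DMSO, PRIM1, MCM2, MCM6, MCM3, CHAF1B, RFC5 and RFC2 were higher in DKO cells, by log2 fold changes between 0.73 and 1.52. These 7 of 32 genes compare with 8.91% of all 21810 tested genes called higher, and none of the 32 compares with 9.70% of all genes called lower (edgeR quasi-likelihood test, Benjamini-Hochberg adjusted p under 0.05). All 32 log2 fold changes were above 0, with a median of 0.68 against -0.06 over all tested genes, and 15 of the 32 had an unadjusted p under 0.05. The share of all genes with an unadjusted p under 0.05 is not given here. Such counts, also those further below, therefore have no share of all genes to be set against. In 7 genes every DKO DMSO library was higher than every WT DMSO library, where 10.8% of all genes showed this. Those 7 were PRIM1, MCM2, MCM3, MCM6, CHAF1B, RFC2 and POLE2, so that RFC5 passed the test with overlapping groups and POLE2 did not pass without overlap. The 32 genes share their libraries and are not independent of each other. The count was 15 without WT DMSO replicate 1 and 12 without DKO DMSO replicate 4, where 1946 of 22792 and 2125 of 22348 genes were called higher. It was 11 without DKO EZ replicate 1 and 4 without WT DMSO replicate 3, where 2261 of 22499 and 1763 of 22518 genes were called higher. Without the 3 libraries lowest in these genes the count was 12, where 11.4% of all genes were then called higher. Those libraries were picked by the level of these same genes, which lowers the spread of these genes within groups. The count without them is therefore a description only. Leaving out WT DMSO replicate 1 gave a median log2 fold change of 1.03, leaving out replicate 4 of that group gave 0.42, and leaving out the 3 lowest libraries gave 0.42.

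**Figure D2:**
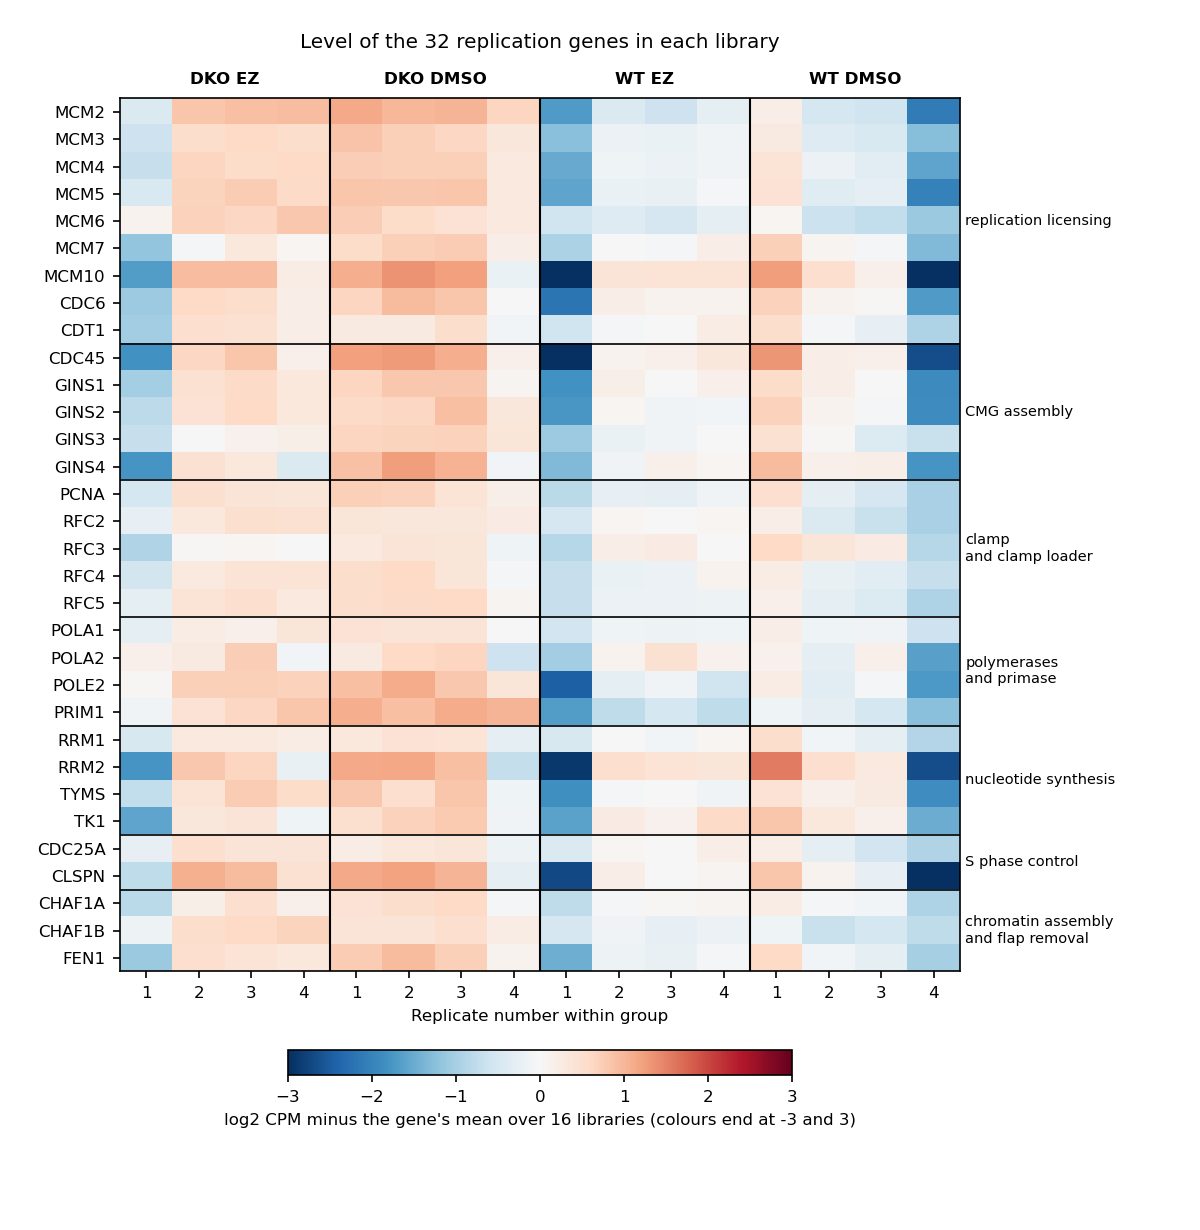
Level of each of the 32 genes (rows, grouped by role) in each of the 16 libraries (columns, grouped as DKO EZ, DKO DMSO, WT EZ and WT DMSO), as log2 CPM minus the gene's mean over the 16 libraries. WT EZ replicate 1 and WT DMSO replicate 4 are blue in nearly all rows, and the spread within groups is widest for MCM10, RRM2, CDC45 and CLSPN.

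The promoters of MCM6, MCM2 and MCM3 are shown because these 3 are the genes among the 7 with an E2F-type motif near the start, and that of POLE2 because its groups did not overlap in either treatment and it carries 2 matches. Each window runs from 250 bases before to 50 bases after the RefSeq start (GRCh38.p14), 5′ to 3′ on the gene's strand. Capitals mark matches to TTTCCCGC, TTTGGCGC, TTTCGCGC, TTTGCCGC, TTTCCCGG or TTTGGCGG on either strand. The windows are chr2:135876394-135876693 on the minus strand for MCM6, chr3:127598161-127598460 on the plus strand for MCM2, chr6:52284693-52284992 on the minus strand for MCM3 and chr14:49688165-49688464 on the minus strand for POLE2.
MCM6: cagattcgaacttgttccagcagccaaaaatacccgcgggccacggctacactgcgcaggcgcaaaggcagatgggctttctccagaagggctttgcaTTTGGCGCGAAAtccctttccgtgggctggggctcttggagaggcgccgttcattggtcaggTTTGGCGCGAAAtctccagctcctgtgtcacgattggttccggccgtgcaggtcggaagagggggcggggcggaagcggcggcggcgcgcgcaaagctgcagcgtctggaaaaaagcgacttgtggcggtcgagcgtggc
MCM2: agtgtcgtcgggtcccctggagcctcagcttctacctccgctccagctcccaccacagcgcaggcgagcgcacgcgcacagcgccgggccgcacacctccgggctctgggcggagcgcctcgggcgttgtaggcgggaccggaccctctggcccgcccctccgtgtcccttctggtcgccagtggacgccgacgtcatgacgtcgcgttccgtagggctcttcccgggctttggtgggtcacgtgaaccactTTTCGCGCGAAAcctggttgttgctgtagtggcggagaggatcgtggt
MCM3: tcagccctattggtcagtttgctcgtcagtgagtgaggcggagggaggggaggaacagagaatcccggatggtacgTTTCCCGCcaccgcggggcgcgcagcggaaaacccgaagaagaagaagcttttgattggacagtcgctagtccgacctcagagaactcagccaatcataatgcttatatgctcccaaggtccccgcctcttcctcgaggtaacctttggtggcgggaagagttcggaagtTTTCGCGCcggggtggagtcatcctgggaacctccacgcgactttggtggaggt
POLE2: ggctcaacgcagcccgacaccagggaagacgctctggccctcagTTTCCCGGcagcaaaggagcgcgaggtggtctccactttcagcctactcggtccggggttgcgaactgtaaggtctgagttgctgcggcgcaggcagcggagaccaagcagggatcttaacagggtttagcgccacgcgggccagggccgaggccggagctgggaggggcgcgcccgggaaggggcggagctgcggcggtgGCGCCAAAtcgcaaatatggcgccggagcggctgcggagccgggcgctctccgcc
In MCM6 each of the 2 capital runs holds 2 overlapping matches on opposite strands, which gives 4 matches. In MCM2 the 1 run holds 2 overlapping matches, and MCM3 and POLE2 have 2 separate matches each. Of the 32 genes 29 had a window, and 20 of these 29 (69.0%) held at least 1 match, against 1752 of 27305 genes in the whole table (6.42%). Among the 7 genes higher in DKO DMSO 3 held a match, and among the other 22 with a window 17 did. The windows of PRIM1, CHAF1B, RFC5 and RFC2 did not hold these letters. A match is a stretch of letters and not a measured binding site.

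Replication licensing was the largest role, with 9 genes, of which MCM2, MCM3 and MCM6, subunits of the helicase, were higher in DKO DMSO cells. MCM2 (chr3:127598223-127622436) had 159, 145, 147 and 112 CPM in DKO DMSO replicates 1 to 4, against 82.8, 50.4, 47.8 and 17.0 CPM in WT DMSO replicates 1 to 4. Every DKO library was above every WT library, and the log2 fold change was 1.51 ± 0.42 (SE, adjusted p = 0.02). MCM2 lost its call without WT DMSO replicate 2 or 3, where the adjusted p was at most 0.0535. MCM6 (chr2:135839626-135876426), whose promoter is given above, had 182, 158, 146 and 132 CPM in DKO DMSO libraries, against 112, 68.8, 64.7 and 50.5 CPM in WT DMSO libraries. The groups did not overlap, with a log2 fold change of 1.06 ± 0.20 (SE, adjusted p = 0.00117). MCM3 (chr6:52264009-52284881) had 165, 150.7, 142 and 117 CPM in DKO DMSO libraries, against 111, 70.0, 66.5 and 37.9 CPM in WT DMSO libraries. The groups again did not overlap, the log2 fold change was 1.01 ± 0.32 (SE, adjusted p = 0.0375), and the call was lost without any one of WT DMSO replicates 2, 3 and 4 or DKO DMSO replicates 1, 2 and 3, with an adjusted p of up to 0.0892.

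The other helicase subunits did not pass the test. The log2 fold change of DKO over WT in DMSO was 0.88 ± 0.39 (SE, adjusted p = 0.143) for MCM4, 1.03 ± 0.42 (SE, adjusted p = 0.11) for MCM5 and 0.54 ± 0.37 (SE, adjusted p = 0.357) for MCM7. In each of the 3, WT DMSO replicate 1 lay within the range of the DKO values, as for MCM7 with 168 CPM in WT DMSO replicate 1 and 117 to 172 CPM in DKO DMSO libraries. MCM10, which acts when the loaded helicase is switched on, had 35.4, 42.7, 39.1 and 14.5 CPM in DKO DMSO libraries, against 40.1, 23.5, 18.5 and 1.62 CPM in WT DMSO libraries. Its WT values differed 24.7 times from lowest to highest, and its log2 fold change of 0.65 ± 0.82 (SE) was smaller than its error. The loading factors CDC6 and CDT1 had log2 fold changes of 0.63 ± 0.52 and 0.34 ± 0.31 (SE).

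In the group that turns the loaded helicase into the active CMG complex, none of the 5 genes passed the test in DMSO. Their log2 fold changes of DKO over WT lay between 0.66 and 0.71 for all 5, CDC45, GINS1, GINS2, GINS3 and GINS4, while the SE ran from 0.26 for GINS3 to 0.72 for CDC45. GINS1, the most abundant of them per kilobase, had 63.0, 70.8, 71.3 and 43.3 CPM in DKO DMSO libraries, against 59.1, 46.9, 40.0 and 10.8 CPM in WT DMSO libraries. The groups overlapped, with DKO DMSO replicate 4 below WT DMSO replicates 1 and 2. GINS3 came nearest to the threshold, with an adjusted p of 0.0754.

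Among the genes of the sliding clamp and its loader, RFC5 and RFC2, small subunits of the loader, were higher in DKO DMSO cells. RFC5 (chr12:118013588-118033130) had 44.8, 46.7, 47.0 and 32.8 CPM in DKO DMSO libraries, against 34.6, 25.6, 23.6 and 16.4 CPM in WT DMSO libraries. DKO replicate 4 overlapped with WT replicate 1, and the log2 fold change was 0.77 ± 0.21 (SE, adjusted p = 0.0142). RFC2 (chr7:74231499-74254458) had 49.5, 49.4, 48.9 and 46.2 CPM in DKO DMSO libraries, against 44.2, 28.6, 24.4 and 19.8 CPM in WT DMSO libraries. The 4 DKO values were nearly equal and all above the WT values, with a log2 fold change of 0.73 ± 0.21 (SE, adjusted p = 0.0209). The RFC2 call was lost without WT DMSO replicate 3 (adjusted p = 0.0613) or replicate 4 (adjusted p = 0.0536). RFC4 had a log2 fold change of 0.60 ± 0.23 (SE, adjusted p = 0.0794), PCNA 0.72 ± 0.27 (SE, adjusted p = 0.0811) and RFC3, the smallest of all 32, 0.06 ± 0.29 (SE, adjusted p = 0.912).

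Of the polymerase genes, PRIM1, the catalytic subunit of primase, had the largest log2 fold change of the 32. PRIM1 (chr12:56731596-56752373) had 54.5, 48.1, 55.7 and 52.1 CPM in DKO DMSO libraries, against 23.3, 21.4, 17.8 and 10.8 CPM in WT DMSO libraries. The lowest DKO value exceeded the highest WT value, and the log2 fold change was 1.52 ± 0.25 (SE, adjusted p = 0.000378). POLE2 (chr14:49643555-49688422), a subunit of DNA polymerase epsilon, which copies the leading strand, had 17.4, 20.3, 16.4 and 12.03 CPM in DKO DMSO libraries, against 10.97, 7.52, 9.05 and 2.82 CPM in WT DMSO libraries. The groups did not overlap, but the log2 fold change of 1.12 ± 0.40 (SE, adjusted p = 0.0651) did not pass the test. The polymerase alpha subunits POLA1 and POLA2 had log2 fold changes of 0.45 ± 0.17 (SE, adjusted p = 0.0765) and 0.56 ± 0.38 (SE, adjusted p = 0.343). POLA2 is measured from only 24 to 176 counts per library.

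None of the 4 genes of nucleotide synthesis passed the test in DMSO. RRM1, the large subunit of ribonucleotide reductase, had 181, 197, 192 and 119.5 CPM in DKO DMSO libraries, against 211, 137, 118 and 78.7 CPM in WT DMSO libraries. The highest of these 8 values was in WT replicate 1, and the log2 fold change was 0.34 ± 0.25 (SE, adjusted p = 0.396). RRM2, its small subunit, had 101, 103, 85.8 and 28.1 CPM in DKO DMSO libraries, against 134.9, 65.8, 56.4 and 7.35 CPM in WT DMSO libraries, and a log2 fold change of 0.26 ± 0.80 (SE, adjusted p = 0.868). Its WT values spanned all 4 DKO values. The thymidylate genes TYMS (thymidylate synthase) and TK1 (thymidine kinase) had log2 fold changes of 0.57 ± 0.45 and 0.34 ± 0.51 (SE).

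The 2 genes of S phase control did not pass the test either. CDC25A, a phosphatase that activates CDK2, had 32.8, 35.2, 36.0 and 25.5 CPM in DKO DMSO libraries, against 32.2, 23.3, 18.8 and 14.99 CPM in WT DMSO libraries. DKO DMSO replicates 1 to 3 were above all WT values, with a log2 fold change of 0.54 ± 0.21 (SE, adjusted p = 0.0931). CLSPN, which carries the checkpoint signal at stalled forks, had a log2 fold change of 0.94 ± 0.68 (SE, adjusted p = 0.388).

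Of the genes that finish the new DNA, CHAF1B, a subunit of the CAF-1 complex that places histones behind the fork, was higher in DKO DMSO cells. CHAF1B (chr21:36385378-36419015) had 56.0, 56.0, 60.1 and 49.4 CPM in DKO DMSO libraries, against 39.0, 26.7, 29.5 and 25.1 CPM in WT DMSO libraries. The groups did not overlap, and the log2 fold change was 0.88 ± 0.17 (SE, adjusted p = 0.0013). Its partner CHAF1A had a log2 fold change of 0.54 ± 0.27 (SE, adjusted p = 0.192). FEN1, the nuclease that trims the flaps of Okazaki fragments, had 0.74 ± 0.38 (SE, adjusted p = 0.207).

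**Figure D3:**
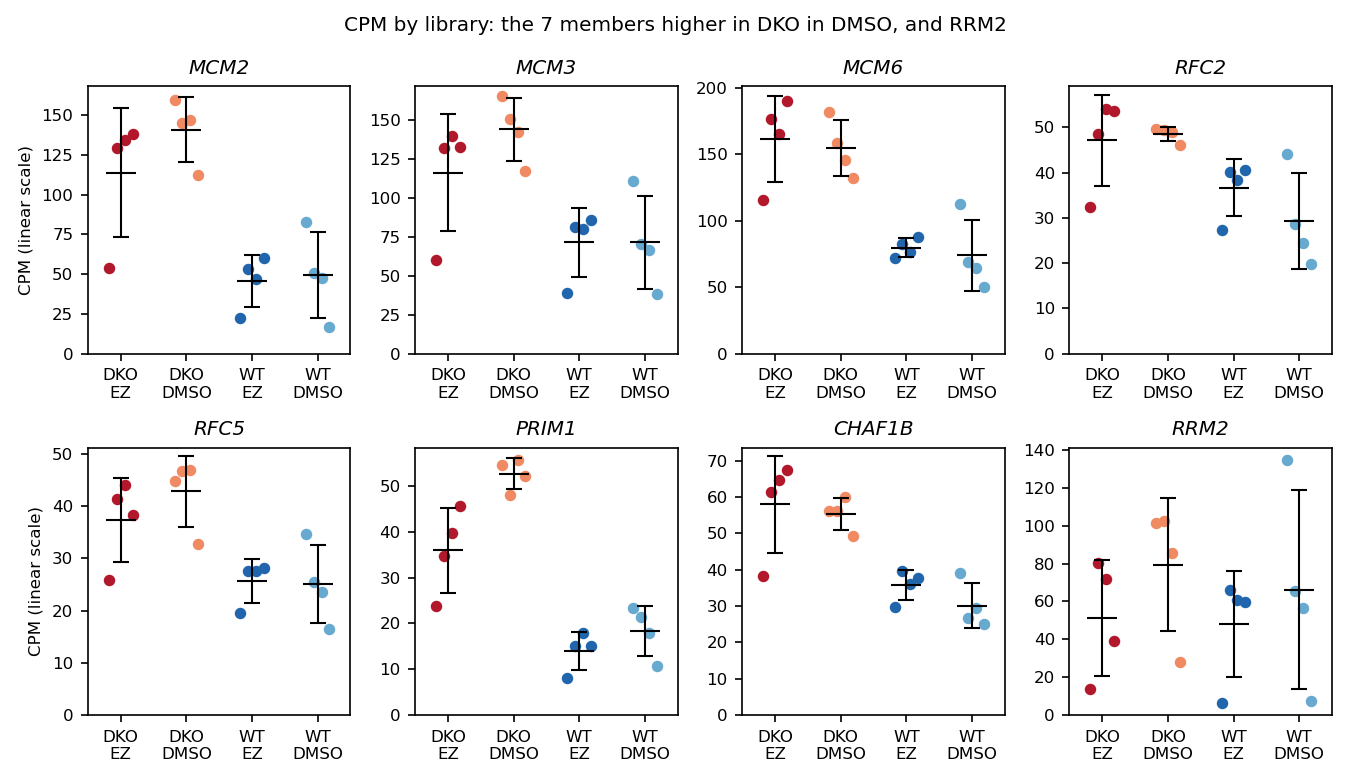
CPM (linear scale) in each library for the 7 genes higher in DKO DMSO and for RRM2, with the mean and SD of each group of 4 in black. In PRIM1 the DKO DMSO libraries lie between 48.1 and 55.7 CPM and the WT DMSO libraries between 10.8 and 23.3 CPM, while in RRM2 the WT DMSO libraries run from 7.35 to 134.9 CPM and overlap with every other group.

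The second comparison sets DKO against WT cells in EZ, with other libraries than the first. PRIM1, MCM6, CHAF1B and MCM2 were higher in DKO cells, which is 4 of 32 genes, a share near the 9.29% of all genes called higher. None of the 32 was lower, against 11.4% of all genes. In 30 of 32 genes the log2 fold change was above 0, with a median of 0.39 against -0.01 over all genes, and 8 had an unadjusted p under 0.05. These 4 genes are also among the 7 higher in DMSO, that is 4 of 4 in EZ and 4 of 7 in DMSO. In MCM6, POLE2 and PRIM1 every DKO EZ library was higher than every WT EZ library, 3 of 32 genes where 10.6% of all genes showed this. The count of genes higher in DKO was 7 without DKO EZ replicate 1, where 1978 of 22499 genes were called higher. Without the 3 libraries lowest in these genes the count was 10, where 9.55% of all genes were called higher. As in DMSO, the choice of libraries by these same genes makes this a description only. The median log2 fold change was 0.67 without DKO EZ replicate 1 and 0.27 without WT EZ replicate 1.

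PRIM1 had 23.8, 34.6, 39.8 and 45.6 CPM in DKO EZ replicates 1 to 4, against 7.98, 15.2, 17.8 and 15.1 CPM in WT EZ replicates 1 to 4. The lowest DKO value lay above the highest WT value, and the log2 fold change was 1.36 ± 0.25 (SE, adjusted p = 0.000906). MCM6 had 116, 176, 165 and 189.9 CPM in DKO EZ libraries, against 71.7, 82.6, 76.8 and 88.1 CPM in WT EZ libraries. These groups did not overlap either, with a log2 fold change of 1.02 ± 0.20 (SE, adjusted p = 0.00147). In DKO EZ replicate 1 both genes were above WT EZ replicates 2 to 4, while RRM2 was 13.5 CPM against 59.7 to 65.9 CPM there. MKI67 was 47.2 CPM in DKO EZ replicate 1 and 116 to 132.5 CPM in WT EZ replicates 2 to 4. The part of cycling in these values was not tested. CHAF1B had 38.3, 61.5, 64.6 and 67.4 CPM in DKO EZ libraries, against 29.8, 39.6, 35.9 and 37.8 CPM in WT EZ libraries. DKO replicate 1 lay among the WT values, and the log2 fold change was 0.70 ± 0.17 (SE, adjusted p = 0.00664).

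MCM2 had 53.5, 129, 134.6 and 138 CPM in DKO EZ libraries, against 22.4, 53.2, 46.8 and 60.2 CPM in WT EZ libraries. Here too DKO replicate 1 lay within the WT range, and the log2 fold change was 1.32 ± 0.41 (SE, adjusted p = 0.0358). This call was lost without any one of WT EZ replicates 1 to 3, DKO EZ replicates 2 to 4 or WT DMSO replicates 2 and 3, with an adjusted p of up to 0.0891 without WT EZ replicate 1. POLE2 had 9.64, 15.4, 15.4 and 15.1 CPM in DKO EZ libraries, against 1.72, 7.81, 8.69 and 6.18 CPM in WT EZ libraries. Its groups did not overlap, and its log2 fold change of 1.18 ± 0.41 (SE, adjusted p = 0.0504) fell just short of the threshold. The other 3 genes called in DMSO had log2 fold changes in EZ of 0.54 ± 0.21 for RFC5 (SE, adjusted p = 0.0764), 0.70 ± 0.32 for MCM3 (SE, adjusted p = 0.14) and 0.36 ± 0.21 for RFC2 (SE, adjusted p = 0.252). The 2 genes below 0 were RFC3 at -0.12 ± 0.29 and TK1 at -0.11 ± 0.51 (SE).

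**Figure D4:**
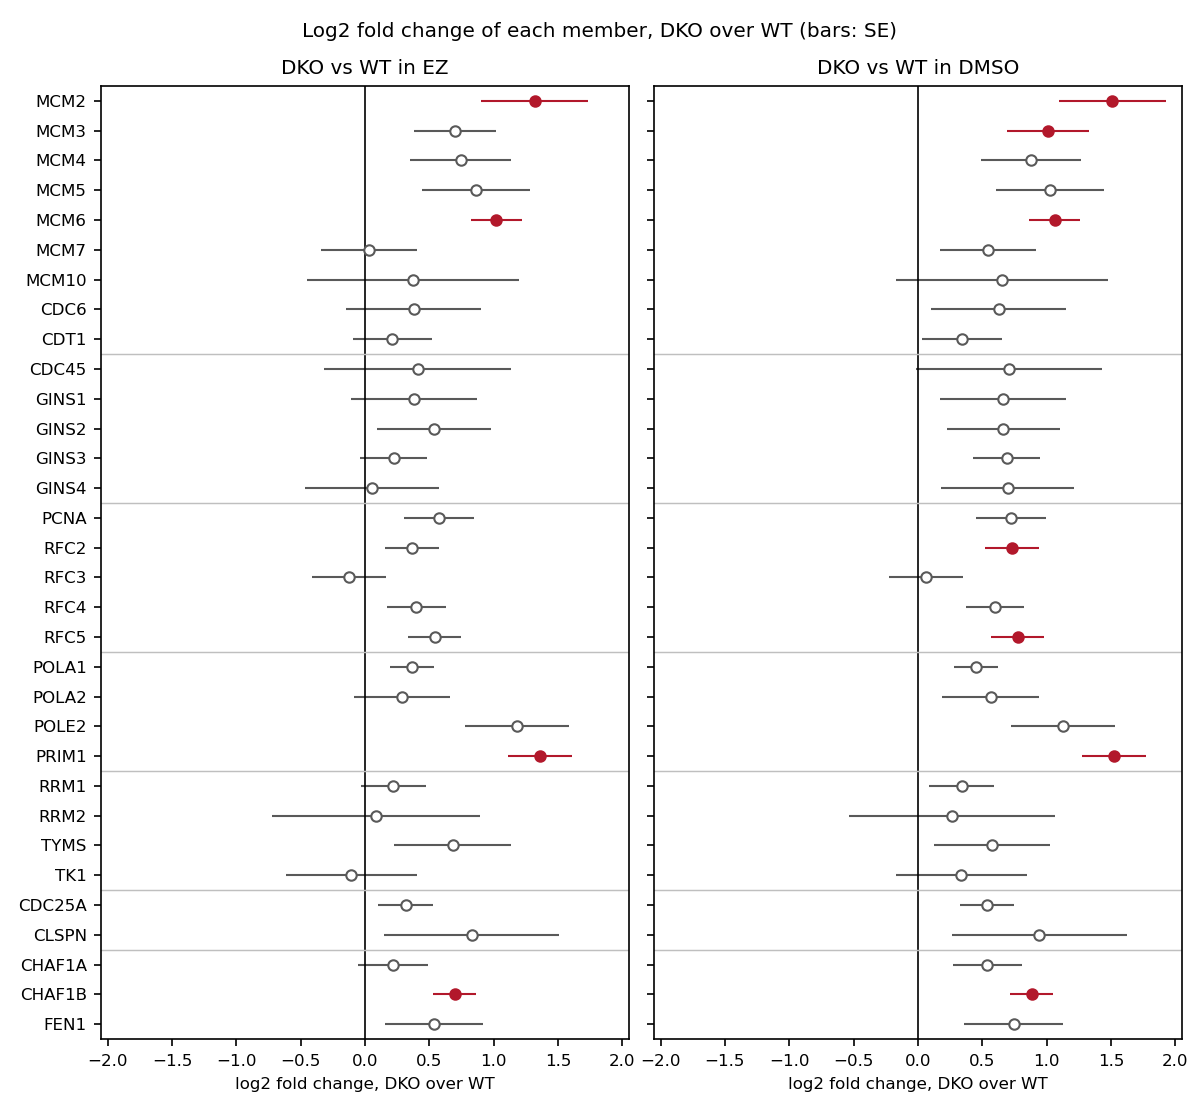
Log2 fold change of DKO over WT for each of the 32 genes, in EZ (left) and in DMSO (right), with SE bars. Filled red points passed the adjusted p threshold, 4 in EZ and 7 in DMSO, and the genes with the longest bars are MCM10, RRM2, CDC45 and CLSPN.

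PRIM1, MCM6 and CHAF1B passed the threshold in both treatments under all 26 alternative settings of each comparison, and RFC5 passed in DMSO under all 26. The libraries also fell into a set of 6 with at least 2000 CPM of RN7SL1, a small cytoplasmic RNA, and a set of 10 below it, and both sets hold libraries of every group. The high set holds 2 libraries of each DKO group but 1 of each WT group, WT EZ replicate 1 and WT DMSO replicate 1, so its differences rest on single WT libraries and are given as a description. For the 7 genes called in DMSO the log2 differences of DKO DMSO from WT DMSO libraries ran from 0.16 (RFC2) to 1.13 (PRIM1) in the high set and from 0.87 (RFC5) to 1.89 (MCM2) in the low set. For the 4 genes called in EZ the differences of DKO EZ from WT EZ libraries ran from 0.70 (CHAF1B) to 1.89 (MCM2) in the high set, whose WT library is the one far below its group, and from 0.80 (CHAF1B) to 1.41 (PRIM1) in the low set.

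The drug comparisons ask whether 6 days of EZ changed these genes within a genotype. No gene of the 32 passed the test in either genotype. In DKO cells 0 of 32 were called, against 1.48% of all genes, and 2 had an unadjusted p under 0.05. The log2 fold changes of EZ over DMSO in DKO cells were below 0 in 29 of 32 genes, with a median of -0.30 against 0.01 over all genes. This median was -0.11 without DKO EZ replicate 1 and -0.42 without DKO DMSO replicate 4. GINS3 had 6.17, 10.1, 10.9 and 11.4 CPM in DKO EZ libraries, against 15.7, 15.9, 16.3 and 12.8 CPM in DKO DMSO libraries, a log2 fold change of -0.65 ± 0.26 (SE, adjusted p = 0.263). PRIM1, with the DKO values given above, had -0.55 ± 0.24 (SE, adjusted p = 0.34). In both genes every DKO EZ library was below every DKO DMSO library, 2 of 32 where 4.41% of all genes showed this. The largest fitted value was that of GINS4, -0.99 ± 0.52 (SE, adjusted p = 0.448), with overlapping groups.

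In WT cells 0 of 32 were called, against 3.32% of all genes, and none had an unadjusted p under 0.05. The log2 fold changes were below 0 in 22 of 32 genes, with a median of -0.13 against -0.03 over all genes. The sign of this median depended on single libraries: leaving out replicate 1 of WT EZ gave 0.14, and replicate 4 gave -0.25. Leaving out replicate 1 of WT DMSO gave 0.23, replicate 2 gave -0.08 and replicate 4 gave -0.37. The smallest adjusted p, 0.499, belonged to RFC2, with 27.4, 40.2, 38.4 and 40.7 CPM in WT EZ libraries, against 44.2, 28.6, 24.4 and 19.8 CPM in WT DMSO libraries, and a log2 fold change of 0.33 ± 0.21 (SE). WT DMSO replicate 4 and WT EZ replicate 1, the 2 lowest libraries, stand on opposite sides of this comparison. For PRIM1 the WT values gave a log2 fold change of -0.38 ± 0.25 (SE, adjusted p = 0.506).

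Libraries of the same replicate number deviated together within each genotype, so the drug comparisons were also fitted with the replicate number as a block within genotype. This raised the share of all genes called to 7.75% in DKO and 12.1% in WT cells, and 0 of the 32 genes were called in either. With this block the median log2 fold change of the 32 was -0.34 in DKO and -0.04 in WT cells. Without the 3 lowest libraries 0 of 32 were called as well, and the median log2 fold change was -0.11 in DKO cells and -0.13 in WT cells. The interaction, the EZ effect in DKO minus the EZ effect in WT, called 0 of 32 and 0% of all genes in the main edgeR fit. No unadjusted p among the 32 was under 0.05. With the block within genotype the interaction called 39 of all genes, and without the 3 lowest libraries it called 4. A replicate block over both genotypes called 1 of all genes. In each of these edgeR fits 0 of the 32 were called. DESeq2 called 10 of all genes and 0 of the 32. The interaction estimates of the 32 had a median of -0.20, and an SE between 0.24 (CHAF1B) and 1.16 (MCM10) in log2 units, so that differences of this size were not detectable for most of them. The interaction median also depended on single libraries. Leaving out 1 DKO library gave -0.01 (EZ replicate 1), -0.13 (DMSO replicate 2) or -0.34 (DMSO replicate 4), leaving out 1 WT library gave -0.45 (EZ replicate 1), -0.10 (EZ replicate 4), -0.53 (DMSO replicate 1) or 0.01 (DMSO replicate 4), and leaving out the 3 lowest libraries gave -0.0029. The drug and genotype comparisons use the same libraries, so their values for a gene are not independent.

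**Figure D5:**
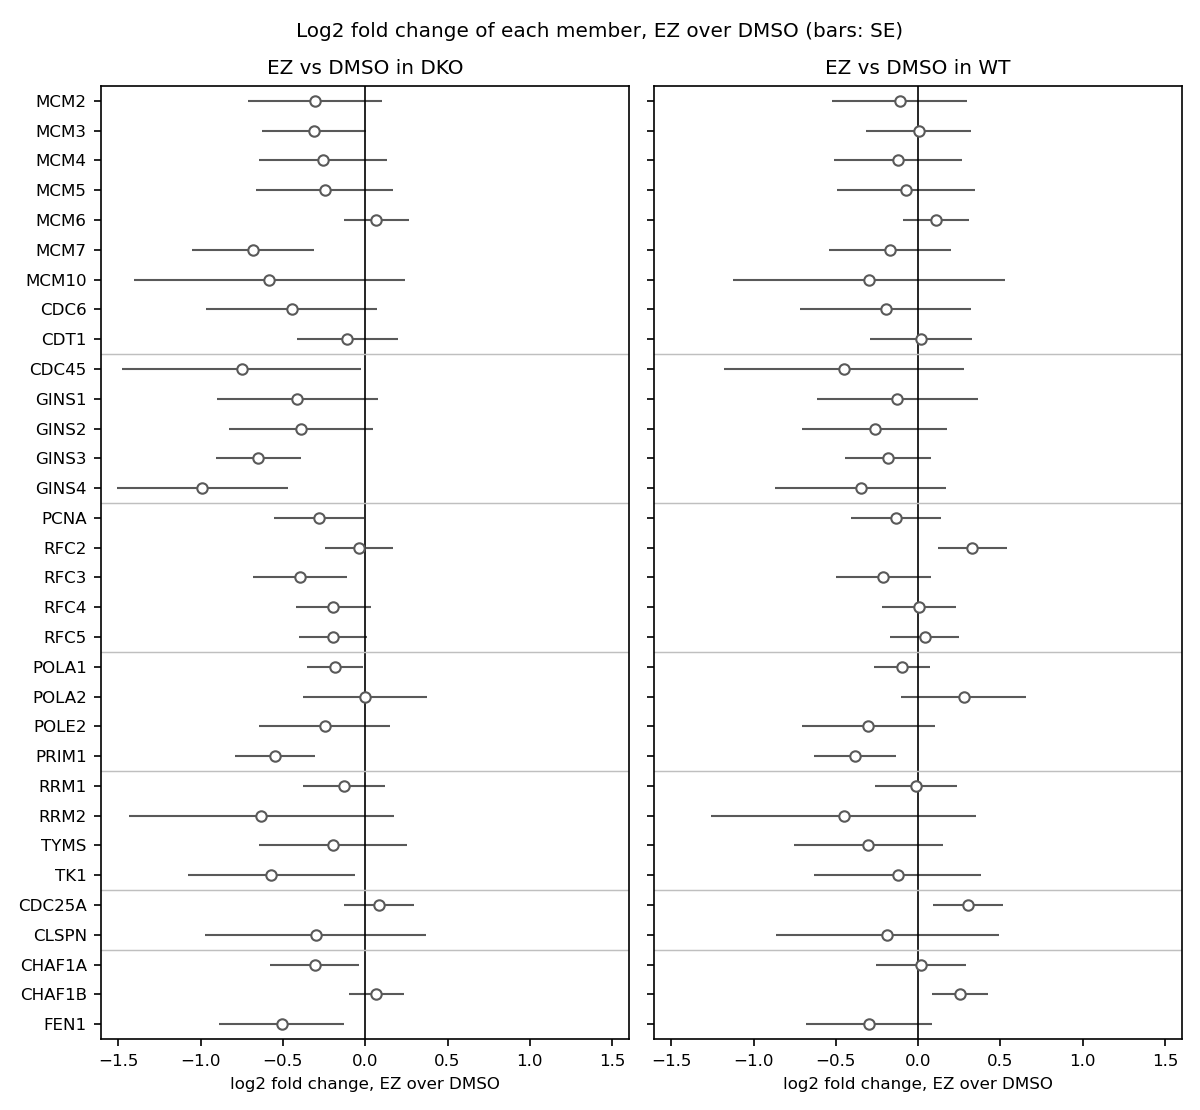
Log2 fold change of EZ over DMSO for each of the 32 genes, in DKO (left) and WT cells (right), with SE bars. All points are open because none passed the threshold, and 29 of 32 lie below 0 in DKO and 22 of 32 in WT cells.

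The 32 genes differed in level and in spread. Per kilobase of exon, PCNA had the highest mean level over the 16 libraries, 103 CPM per kilobase, followed by RRM1 at 35.9 and MCM6 at 28.5 CPM per kilobase, and POLA2 had the lowest at 0.58 CPM per kilobase. Within the helicase the subunits were not level, with 27.6 CPM per kilobase for MCM3 and 25.1 for MCM7 but 4.87 for MCM5. The length used counts all annotated exon bases of a gene, 7338 for MCM5, 3650 for MCM3 and 4386 for MCM7. Part of this gap therefore lies in the length. The pooled within-group SD of log2 CPM was 0.26 for CHAF1B, 0.27 for POLA1 and 0.31 for MCM6. It was 1.58 for MCM10, 1.43 for RRM2, 1.34 for CDC45 and 1.22 for CLSPN. In WT EZ replicate 1 MCM10 and CDC45 rested on 25 and 17 counts. CHAF1B, MCM6, RFC2, RFC5 and PRIM1, called in DMSO, were among the 9 genes with the smallest spread, and MCM3 and MCM2, also called, ranked 15 and 20. RRM2 made up 1.39% to 3.93% of the summed level in DKO EZ, 1.75% to 4.34% in DKO DMSO, 0.87% to 4.77% in WT EZ and 1.18% to 6.62% in WT DMSO libraries, lowest in the library of each group with the lowest sum. PRIM1 made up 1.70% to 2.44% in DKO EZ and 2.03% to 3.24% in DKO DMSO libraries. In WT EZ libraries PRIM1 made up 1.04% to 1.34%, and in WT DMSO libraries 1.14% to 1.73%. Its genotypes thus did not overlap on this scale within either treatment. Those of MCM6 did overlap, at 7.98% to 11.9% in DKO EZ and 5.77% to 10.0% in WT EZ libraries. In DMSO MCM6 made up 6.40% to 8.23% in DKO and 5.19% to 8.10% in WT libraries.

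Other genes of the same pathway, form a list of 40 that does not include the 32. In DMSO 10 of 40 were higher and 3 lower in DKO cells, beside 8.91% and 9.70% of all genes, with a median log2 fold change of 0.35. In EZ 9 of 40 were higher and 4 lower, beside 9.29% and 11.4% of all genes, with a median of 0.15. The lower counts are near the share of all genes. GMNN, the inhibitor of CDT1, had 31.6 to 46.1 CPM in DKO EZ libraries, against 12.6 to 18.3 CPM in WT EZ libraries (log2 fold change 1.28 ± 0.17, SE, adjusted p = 4.15e-05), and in DMSO its log2 fold change was 0.99 ± 0.17 (SE, adjusted p = 0.000478). DONSON, a factor of helicase assembly, had log2 fold changes of 0.93 ± 0.14 in EZ and 0.73 ± 0.14 in DMSO (SE). RPA3, of the single-strand binding protein RPA, had 0.85 ± 0.17 in DMSO, and RFC1, the large clamp loader subunit, 0.52 ± 0.10 in EZ (SE). ORC5, of the origin recognition complex, was lower in DKO cells, by log2 fold changes of -0.68 ± 0.13 in EZ and -0.63 ± 0.13 in DMSO (SE). In the drug comparisons 0 of the 40 were called, with 9 unadjusted p under 0.05 in DKO and 1 in WT cells. Of the 20 mitosis genes none passed in any comparison, with 1 unadjusted p under 0.05 for DKO against WT in EZ, 2 in DMSO and 0 in the drug comparisons. Their median log2 fold change of DKO over WT was 0.44 in EZ and 0.83 in DMSO, and that of EZ over DMSO was -0.87 in DKO and -0.49 in WT cells.

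Several of the 32 genes share exon sequence with a neighbour in the annotation, and the strand setting of the counting is not given in the sources used here, so reads in the shared bases could fall to either gene or to none. PRIM1 shares 33 bases with NACA on the same strand and 132 bases with HSD17B6 on the opposite strand. It also shares 362 bases on the same strand with an unnamed protein-coding gene that averaged 0 CPM in every group. NACA averaged 293 CPM in DKO EZ and 346 CPM in DKO DMSO, against 478 CPM in WT EZ and 457 CPM in WT DMSO libraries. HSD17B6 averaged 4.14 CPM in DKO EZ and 6.28 CPM in DKO DMSO, against 1.40 CPM in WT EZ and 1.62 CPM in WT DMSO libraries. MCM2 shares 1113 bases with an antisense gene that averaged 2.71 CPM in DKO EZ, 2.46 CPM in DKO DMSO, 2.15 CPM in WT EZ and 2.12 CPM in WT DMSO libraries. RFC5 shares 186 bases with WSB2, CHAF1B 89 bases with MORC3 and TYMS 967 bases with ENOSF1. POLA2 shares 2012 bases and RRM2 1077 bases with unnamed protein-coding genes on the same strand. For these genes the split of reads is uncertain.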

How the data were processed

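The deposited files hold raw counts per Ensembl gene, 1 file for each of the 16 libraries; per the submitters' processing notes reads were handled with STAR 2.7.3a on GRCh38. Which tool, annotation and strand setting produced the counts is not given in the sources used here. Counts were used as deposited. Genes with few counts were removed (filterByExpr, minimum count 10, minimum total 15), which left 21810 genes, and libraries were scaled by TMM. All 16 libraries entered 1 fit with a mean per group, tested with the quasi-likelihood test of edgeR 4.0.16 in R 4.3.3, with Benjamini-Hochberg adjustment over all tested genes and a threshold of 0.05. The SE is the log2 fold change divided by the square root of its F statistic. Log2 CPM used a prior count of 2. DESeq2 1.42.0 was an alternative. The main fit was also run on simulated counts, with the same spread for every gene and no library set apart from its group. That run therefore does not bear on the low libraries seen here.

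The genes, lists and tests were chosen with earlier results of these data known. Values in every library are given for genes past the threshold in a comparison (at most 8 per comparison), and for the most abundant gene per kilobase of each role with none; MCM10, POLE2, RRM2 and GINS3 were added after their values were seen. Of the other replication genes the 4 with the lowest adjusted p per comparison are named. Promoters were chosen by adjusted p among called genes with a motif, then by number of matches, from RefSeq GRCh38.p14. MCM7, CDC6, CDT1 and POLA2 also had a window with 2 matches, and POLE2 was taken for its groups without overlap. Gene positions and exon lengths are from GENCODE v29 (GRCh38). Within a genotype, libraries with the same replicate number deviated together (correlation 0.403 to 0.664 in DKO and 0.326 to 0.625 in WT cells). The numbers were therefore taken to pair them, and a block within genotype was fitted. WT EZ replicate 3 also deviated with WT DMSO replicate 2 (correlation 0.511), so the pairing by number is less clear in WT cells. No 2 libraries of a group agreed within counting noise (chi-square over degrees of freedom 4.87 to 88.7). The level of the other gene targeted in the DKO cells is not reported here.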

Additional observations from a re-analysis of the deposited data

Results flagged for a closer look

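Of 56 groups checked over 14 quantities, 15 had a lowest library far below the other 3. For a single check chance alone gives about 1 in 20. The quantities share libraries and move together, and the summed level contains the genes, so the count cannot be set against that rate. All flags fell in WT EZ replicate 1, DKO EZ replicate 1 or DKO DMSO replicate 4. MCM10 and RRM2 were added after their values were seen. In WT EZ replicate 1, MCM10 was 1.385 CPM against 21.9 to 22.2 CPM in the other WT EZ libraries, RRM2 6.206 CPM against 59.7 to 65.9 CPM, GINS1 11.47 CPM against 41.0 to 45.5 CPM and MCM3 38.57 CPM against 79.8 to 85.8 CPM. In the same library RFC5 was 19.45 CPM against 27.6 to 28.1 CPM, RFC2 27.37 CPM against 38.4 to 40.7 CPM, MKI67 17.57 CPM against 116 to 132.5 CPM, and the summed level of the 32 genes 714.7 CPM against 1330 to 1450 CPM.

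In DKO EZ replicate 1, MCM2 was 53.53 CPM against 129 to 138 CPM in the other DKO EZ libraries, MCM3 59.94 CPM against 132 to 139.7 CPM, RRM1 104.6 CPM against 168 to 178 CPM, and the summed level 972.9 CPM against 1941 to 2072 CPM. In DKO DMSO replicate 4, RFC5 was 32.82 CPM against 44.8 to 47.0 CPM in the other DKO DMSO libraries, MKI67 81.74 CPM against 264 to 286.5 CPM, and the summed level 1609 CPM against 2278 to 2363 CPM. No group was flagged for a library far above the others.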

How the results depend on the processing

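Replication genes higher in DKO than in WT in DMSO numbered 7 as reported and 13 with library totals in place of TMM scaling. The count was 11 with DESeq2 and 16 with replicate 1 of both EZ groups left out. Of all genes, 8.91% were called higher as reported and 3479 of 21810 with library totals. The share was 10.6% with DESeq2 and 10.6% with replicate 1 of both EZ groups left out. Leaving out 1 library gave 4 (without WT DMSO replicate 3) to 15 (without WT DMSO replicate 1). In EZ the count was 4 as reported and 7 with library totals, where 2027 and 3966 of 21810 genes were called higher. The 7 with library totals lie near that share of all genes. In EZ the count was 3 to 7 when 1 library was left out, the highest without DKO EZ replicate 1. An alternative chosen after seeing the data left out the 3 libraries lowest in these genes (DKO EZ replicate 1, WT EZ replicate 1, WT DMSO replicate 4). The count was then 12 in DMSO and 10 in EZ. Because the libraries were picked by the level of these same genes, these counts are a description only. The cause of these shifts was not tested. Library totals moved the median log2 fold change of all genes to 0.14 in DMSO and 0.23 in EZ, and the share of all calls that were higher in DKO to 76.3% from 47.9% in DMSO and to 77.0% from 45.0% in EZ (58.1% in EZ with upper-quartile scaling). In WT cells, the share of all calls for EZ against DMSO that were higher in EZ was 55.3% with library totals. That share was 56.1% with upper quartiles, against 67.8% with TMM. Relative to all genes the median of the 32 was 0.72 in DMSO and 0.38 in EZ with library totals, against 0.74 and 0.40 with TMM.

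A replicate block left 6 genes in DMSO and 3 in EZ, where 2647 and 2757 of all 21810 genes were called higher. The 3 in EZ are not above that share of all genes. Same-numbered DKO and WT libraries did not all deviate together (correlations from -0.067 to 0.674 in DMSO and from -0.052 to 0.523 in EZ). MCM3 in DMSO (adjusted p = 0.0781) and MCM2 in EZ (adjusted p = 0.0744) missed the threshold with the block. With no filter on low counts MCM2 (0.0636) and MCM3 (0.116) in DMSO and MCM2 in EZ (0.0975) missed it by adjusted p. In the drug comparisons and the interaction 0 of the 32 genes were called under each alternative run, the block within genotype included. The fit on only the compared groups cannot give the interaction. No gene that passed the threshold in DMSO or EZ changed direction under the alternatives run. Genes that missed it could: the median of the 32 for EZ over DMSO in WT cells was 0.23 without WT DMSO replicate 1, against -0.13 with all libraries.

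POLA2, the lowest of the genes, was measured from 24 to 176 counts per library, with a pooled within-group SD of log2 CPM of 0.61. The spread between libraries limits MCM10, RRM2, CDC45 and CLSPN.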
